A study of Arabidopsis thaliana with 18 samples.

Results

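The plant hormone auxin is perceived in Arabidopsis by F-box proteins of the TIR1/AFB family, and its message is carried out by ARF transcription factors. The genes described here are the 5 receptor genes TIR1 (AT3G62980), AFB1 (AT4G03190), AFB2 (AT3G26810), AFB3 (AT1G12820) and AFB5 (AT5G49980), and the 5 genes for ARFs of the activator class, ARF5 (AT1G19850), ARF6 (AT1G30330), ARF7 (AT5G20730), ARF8 (AT5G37020) and ARF19 (AT1G19220). They were chosen by gene identity and not by a measured value. All 10 were found among the 33655 genes of the count table, and all 10 passed the filter on low counts, which left 18078 genes for testing.

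Transcripts were measured by 3′ Tag-Seq, which counts reads at transcript ends, in whole Arabidopsis seedlings of 6 groups with 3 libraries each. Libraries labelled hec1hec2, a mutant in the bHLH genes HEC1 and HEC2, libraries of pifQ, a mutant in PIF1, PIF3, PIF4 and PIF5, and libraries of the wild type Col-0 were each made after 24 h at 28°C and after 24 h at 22°C. All seedlings had first grown for 5 days at 22°C on medium without sucrose, and all groups were kept in continuous white light. The study's methods call the libraries of a group independent biological replicates and give another seedling age than the labels. The mutant alleles are not named in the labels, and each library mixes all tissues of the seedling.

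Some libraries need a word before the results. Library totals ranged from 3631558 to 6285632 counts, and the 10 genes had 18 to 343 counts in a library. In the libraries labelled hec1hec2, HEC1 had 2691 to 3308 counts, against 33 to 68 in Col-0, which goes against a loss of its transcript, and HEC2 had 0 to 6 counts, against 3 to 14 in Col-0. These are called libraries labelled hec1hec2 throughout. In pifQ, PIF3 had 1 to 6 and PIF5 3 to 12 counts, against 56 to 83 and 170 to 553 in Col-0. PIF1 had 66 to 97 and PIF4 60 to 523 counts in pifQ, against 42 to 71 and 59 to 403 in Col-0, so these counts showed no loss of either transcript. One library, pifQ 22°C replicate 2, had 41.2% of its counts on chromosome 1 and 10.1% on chromosome 5, against 29.1% to 30.1% and 19.3% to 20.6% in the other 17 libraries. Its counts moved in steps along the chromosomes, so many values that rest on it are given with and without it. Log2 fold changes and FDRs given once include it, unless 17 libraries are named. Green tissue was plain in all libraries, and of 4 flower markers AG and AP1 had no counts and AP3 had 0 to 4. The fourth, PI, rose at 28°C in pifQ (log2 fold change 3.73, FDR = 1.1e-07, edgeR) and Col-0 (1.81, FDR = 0.00089), and had 0.83 in libraries labelled hec1hec2 (FDR = 0.17). The flower markers summed to 2.01 to 3.83 CPM at 28°C, against 1.87 to 2.05 CPM at 22°C, in libraries labelled hec1hec2, to 12.2 to 15.0, against 0.778 to 1.15 CPM, in pifQ, and to 4.32 to 11.3, against 1.59 to 2.33 CPM, in Col-0 (CPM is the counts-per-million scale). Seed storage markers summed to 4.92 to 27.9 CPM at 28°C, against 0 to 1.61 CPM at 22°C.

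Auxin joins a TIR1/AFB receptor to an Aux/IAA protein, and the Aux/IAA protein is then degraded through the SCF ubiquitin ligase that the receptor belongs to. Aux/IAA proteins hold activator ARFs in check together with TPL corepressors, so their loss frees the ARFs to switch on genes. Among seedling responses that use this chain are hypocotyl elongation in warmth, in which PIF4 takes part, and root branching and bending. The chain is also tuned by small RNAs, with miR393 directed at receptor transcripts and miR167 at ARF6 and ARF8 transcripts.

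The mature miRNAs and the stretches of the members' transcripts that match them are shown because they divide each class into genes with and without a site. Mature sequences are as the RefSeq annotation of the TAIR10.1 assembly places them, with capitals for the seed (bases 2 to 8).
miR393a-5p and miR393b-5p: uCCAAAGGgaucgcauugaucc
miR167a-5p and miR167b: uGAAGCUGccagcaugaucua
miR167c-5p: uAAGCUGCcagcaugaucuug
miR167d: uGAAGCUGccagcaugaucugg
The miR393 mature sequences were identical. Of the miR167 sequences, a, b and d shared 1 seed and c had another.

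Sites were sought in 1 spliced transcript per gene by base pairing, with a penalty of 1 for a mismatch and 0.5 for a G:U pair, and a match with a penalty of at most 4 was taken as a site. In the sites, capitals mark bases that form Watson-Crick pairs with miR393a-5p or miR167a-5p.
TIR1, chr3:23273727-23273748, minus strand: GagaCAAUGCGAUCCCUUUGGA
AFB1, chr4:1405341-1405362, minus strand: GagaCcAUGCGAUCCCUUUGGA
AFB2, chr3:9870237-9870258, plus strand: GaAaCAAUGCGAUCCCUUUGGA
AFB3, chr1:4369085-4369106, minus strand: GaAaCAAUGCGAUCCCUUUGGA
ARF6, chr1:10686478-10686498, minus strand: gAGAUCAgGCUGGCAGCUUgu
ARF8, chr5:14633841-14633861, plus strand: UAGAUCAgGCUGGCAGCUUgu
All of these sites lay in coding exons of the TAIR10.1 assembly. AFB2 and AFB3 carried the same site, with 20 of 22 bases paired to miR393 and a penalty of 2. TIR1 had 19 bases paired and a penalty of 2.5, and AFB1 had 18 and a penalty of 3.5. AFB5 had no such match, its best having a penalty of 7. ARF8 had 18 of 21 bases paired to miR167 (penalty 3) and ARF6 had 17 (penalty 4), while ARF5, ARF7 and ARF19 had none (best penalties 6 to 7). Of 27444 transcripts searched, 0.0328% had a miR393 site and 0.0729% a miR167 site. A match of letters is a description and shows no cleavage.

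Transcripts of the 10 genes stood at different levels in seedlings. In 3′ Tag-Seq a transcript gives reads from its end only, so levels in CPM, taken on library sizes scaled by TMM, are compared between genes without a correction for length. Over the 17 libraries other than pifQ 22°C replicate 2, AFB2 averaged 61.0 CPM, AFB5 57.4, TIR1 46.0, AFB3 28.7 and AFB1 23.3. Among the ARFs, ARF6 averaged 36.3 CPM, ARF7 24.6, ARF8 19.3, ARF5 13.1 and ARF19 6.30. The receptor transcripts together made up 184 to 248 CPM and the ARF transcripts 83.0 to 126 CPM in a library.

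The genes also differed in how much they varied. AFB2 and AFB3 were the steadiest, with coefficients of variation of 6.79% and 6.97% over the 17 libraries, and ARF19, AFB1 and ARF8 the most variable, with 24.6%, 24.2% and 23.3%. ARF19 had only 18 to 37 counts in a library, so counting error is a larger part of its spread. The largest ratio between group means was 1.82 for ARF5, between pifQ at 22°C and libraries labelled hec1hec2 at 28°C, and the smallest was 1.06 for AFB2.

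**Figure D1:**
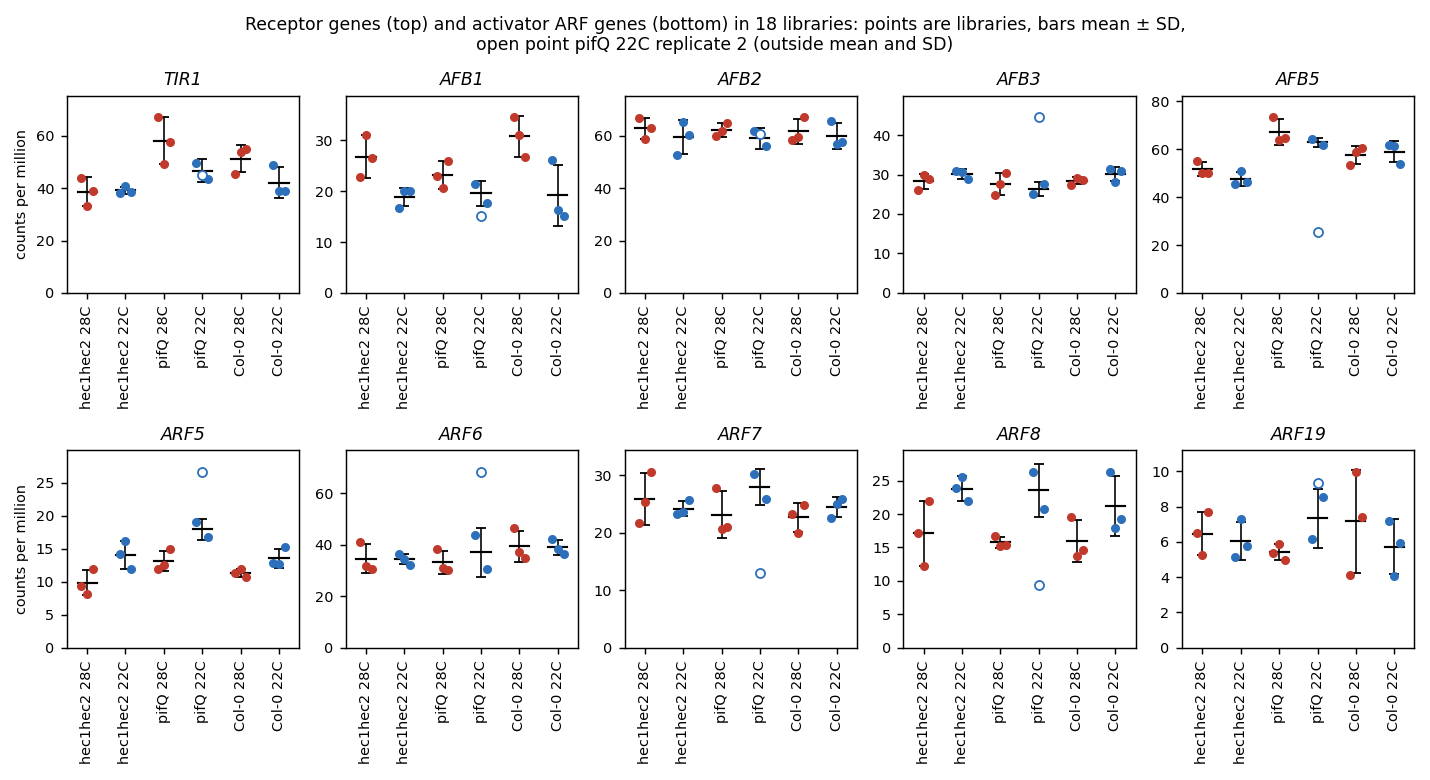
Level of each gene in CPM (vertical axes from 0) in the 18 libraries, by group, with 28°C in red and 22°C in blue. Points are libraries and bars give mean and SD. The open point is pifQ 22°C replicate 2, outside mean and SD. AFB2 lay between 52.6 and 67.3 CPM in every library, while ARF5 was lower at 28°C than at 22°C in each genotype.

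Warmth was the first comparison, with 28°C set against 22°C within each genotype. AFB1 transcripts were more abundant at 28°C in libraries labelled hec1hec2 and in Col-0, and ARF5 transcripts less abundant at 28°C in pifQ; these were the calls at an FDR of at most 0.05 with all 18 libraries. That is 1 of 10 genes in libraries labelled hec1hec2, 1 in pifQ and 1 in Col-0, against 29.2%, 27.4% and 26% of all genes tested. Without pifQ 22°C replicate 2 the counts were 3 (AFB1, ARF5 and ARF8), 1 (ARF8) and 1 (AFB1) of 10, against 36.7%, 28.2% and 33.7% of all genes. Tests were edgeR's quasi-likelihood test with Benjamini-Hochberg adjustment over all genes tested, here and throughout. No member reached the 2-fold change that the study also asked for, against 8.93%, 7.82% and 7.94% of all genes in the same order of genotypes.

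AFB1, a diverged receptor known for fast responses of the root, had the largest increase on average over the genotypes. In libraries labelled hec1hec2 it had 22.8, 31.1 and 26.4 CPM at 28°C, against 16.8, 19.9 and 19.9 CPM at 22°C. In pifQ it had 22.9, 20.5 and 25.9 CPM at 28°C, against 21.3, 15.0 (replicate 2) and 17.8 CPM at 22°C. In Col-0 it had 34.6, 31.0 and 26.7 CPM at 28°C, against 26.1, 16.4 and 15.1 CPM at 22°C. The ranges at 28°C and 22°C were apart in libraries labelled hec1hec2 and in Col-0, and overlapped in pifQ. Means in Col-0 were 30.8 ± 3.97 CPM at 28°C and 19.2 ± 6.04 CPM at 22°C (SD, n = 3 each).

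The log2 fold change of AFB1 was 0.51 in libraries labelled hec1hec2 (standard error 0.19, FDR = 0.043, edgeR), and 0.51 with FDR = 0.015 without pifQ 22°C replicate 2. In Col-0 it was 0.69 (standard error 0.19, FDR = 0.0083, edgeR), a 1.62-fold increase with a 95% interval of 1.23 to 2.12. In pifQ it was 0.35 (FDR = 0.19, edgeR), and 0.24 without replicate 2 (FDR = 0.39). The increase in pifQ was smaller than in Col-0 by 0.35 on the log2 scale, with an interval from -0.90 to 0.21 (FDR = 0.79 for the interaction, edgeR), so a difference between these genotypes was not shown. The call in Col-0 was lost without Col-0 22°C replicate 2 (log2 fold change 0.59, FDR = 0.055) or replicate 3 (0.54, FDR = 0.070), and that in libraries labelled hec1hec2 was lost under several settings, with an FDR of up to 0.19.

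AFB1 lies on chromosome 4 and shares its position with AT4G03180 on the opposite strand. Whether reads were counted by strand is not given in the sources used here, so reads from the shared stretch could have gone to either gene or to neither. AT4G03180 had 34 to 109 counts and log2 fold changes of -0.53 in libraries labelled hec1hec2, -0.12 in pifQ and -0.47 in Col-0, none past the FDR. The 7 root markers summed to 123 to 167 CPM at 28°C and 106 to 175 CPM at 22°C in libraries labelled hec1hec2, to 45.2 to 66.3 and 62.5 to 72.1 CPM in pifQ, and to 75.3 to 84.0 and 77.8 to 112 CPM in Col-0. In libraries labelled hec1hec2, 1 of these 7 was higher at 28°C (MYB36, log2 fold change 0.74, FDR = 0.038, edgeR) and 1 lower, and 3 were higher (CASP1 and CASP2 as well) and 2 lower without pifQ 22°C replicate 2. In pifQ none was higher and 1 lower (2 without replicate 2), and in Col-0 none was higher and 3 were lower (4 without it). Their part in the values of AFB1 was not tested. In whole seedlings a change in the share of a cell type and a change of transcript per cell cannot be told apart.

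No other receptor was called within a genotype. TIR1, the founding receptor, had 44.0, 33.2 and 39.0 CPM at 28°C, against 38.4, 40.7 and 38.5 CPM at 22°C, in libraries labelled hec1hec2. In pifQ it had 67.3, 49.4 and 57.6 CPM at 28°C, against 49.8, 44.9 (replicate 2) and 43.6 CPM at 22°C. In Col-0 it had 45.3, 53.7 and 55.0 CPM at 28°C, against 48.9, 38.9 and 38.8 CPM at 22°C. The ranges overlapped in all 3 genotypes, and the log2 fold changes were -0.02 in libraries labelled hec1hec2, 0.33 in pifQ and 0.29 in Col-0 (FDR = 0.94, 0.084 and 0.15, edgeR). Without replicate 2 the value of TIR1 in pifQ was 0.31 (FDR = 0.098, edgeR).

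AFB2, a receptor that acts alongside TIR1, hardly moved. Its log2 fold changes were 0.08 in libraries labelled hec1hec2 (95% interval -0.17 to 0.33), 0.06 in pifQ (-0.19 to 0.31) and 0.04 in Col-0 (-0.21 to 0.29). AFB3, which is closely related to AFB2 and overlaps AT1G12810 (71 to 149 counts) on the opposite strand, had -0.09 in libraries labelled hec1hec2 and in Col-0. In pifQ its value depended on the library with stepped counts, which had 44.6 CPM against 24.9 to 31.5 CPM in the other 17, and was -0.22 with and 0.07 without it. AFB5, a receptor known for binding the herbicide picloram, had 25.4 CPM in that library, against 64.2 and 61.6 CPM in the other pifQ libraries at 22°C, and its log2 fold change in pifQ was 0.40 with (FDR = 0.13, edgeR) and 0.09 without it (FDR = 0.59).

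ARF5 (MONOPTEROS), known for its part in laying down the embryonic root and the vascular strands, was the clearest decrease. It had 9.39, 8.20 and 11.93 CPM at 28°C, against 14.2, 16.2 and 11.96 CPM at 22°C, in libraries labelled hec1hec2. In pifQ it had 12.005, 12.6 and 14.9 CPM at 28°C, against 19.0, 26.7 (replicate 2) and 16.8 CPM at 22°C. In Col-0 it had 11.3, 11.9 and 10.7 CPM at 28°C, against 12.8, 12.7 and 15.3 CPM at 22°C. The ranges did not overlap in any of the 3 genotypes, although in libraries labelled hec1hec2 they nearly touched. Means in libraries labelled hec1hec2 were 9.84 ± 1.91 CPM at 28°C and 14.1 ± 2.12 CPM at 22°C (SD, n = 3 each).

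Groups that do not overlap are common here. At 28°C and 22°C, 2 of the 10 genes had ranges apart in each genotype (AFB1 and ARF5 in libraries labelled hec1hec2 and in Col-0, ARF5 and ARF19 in pifQ), against 47.2%, 35.9% and 44.7% of all genes in libraries labelled hec1hec2, pifQ and Col-0. The log2 fold change of ARF5 was -0.52 in libraries labelled hec1hec2 (standard error 0.20, FDR = 0.051, edgeR), and FDR = 0.020 without pifQ 22°C replicate 2. In pifQ it was -0.65 (standard error 0.19, FDR = 0.011, edgeR), but without replicate 2, which had the highest level, it was -0.45 (FDR = 0.068). In Col-0 it was -0.28 (standard error 0.20, FDR = 0.35, edgeR). ARF5 shares its position with AT1G19860 on the opposite strand, so reads from the shared stretch could have gone to either gene or to neither. AT1G19860 had 38 to 90 counts and log2 fold changes of -0.30 in libraries labelled hec1hec2, -0.24 in pifQ and -0.04 in Col-0, none past the FDR.

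ARF8, a miR167 target known for hypocotyl growth and flower maturation, was called lower at 28°C in libraries labelled hec1hec2 and pifQ once the stepped library was set aside. It had 17.2, 12.2 and 21.9 CPM at 28°C, against 24.0, 25.6 and 21.9 CPM at 22°C, in libraries labelled hec1hec2. In pifQ it had 16.7, 15.2 and 15.3 CPM at 28°C, against 26.3, 9.34 (replicate 2) and 20.8 CPM at 22°C. In Col-0 it had 19.6, 13.8 and 14.6 CPM at 28°C, against 26.4, 17.9 and 19.3 CPM at 22°C. Apart from replicate 2, the ranges in pifQ did not overlap, and those in the other genotypes did. No share of all genes is given for ranges without replicate 2.

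With all 18 libraries the log2 fold changes of ARF8 were -0.48, -0.28 and -0.40 in libraries labelled hec1hec2, pifQ and Col-0 (FDR = 0.15, 0.44 and 0.27, edgeR). With 17 libraries they were -0.48, -0.59 and -0.39 (FDR = 0.031, 0.024 and 0.10, edgeR). ARF6, the close relative of ARF8 with the other miR167 site, had log2 fold changes of 0.00 in libraries labelled hec1hec2, -0.51 in pifQ and 0.02 in Col-0 (FDR = 0.99, 0.058 and 0.96, edgeR) with 18 libraries. Its value in pifQ was -0.17 (FDR = 0.46) without replicate 2, where ARF6 had 68.5 CPM, against 43.8 and 30.4 CPM in the other pifQ libraries at 22°C. The 6 green shoot markers summed to less at 28°C in every genotype, to 24029 to 26630 CPM, against 36483 to 46804 CPM at 22°C, in libraries labelled hec1hec2, to 28359 to 30045, against 35805 to 45234 CPM, in pifQ, and to 25351 to 28706, against 35359 to 38130 CPM, in Col-0. Of these 6, 3 rose in each genotype and 3, 2 and 3 fell, and their part in the values of ARF5 and ARF8 was not tested.

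ARF7 and ARF19, known for phototropism and lateral roots, showed no call. ARF7 had log2 fold changes of 0.10 in libraries labelled hec1hec2, -0.01 in pifQ and -0.10 in Col-0 with 18 libraries, and -0.28 in pifQ (FDR = 0.20, edgeR) without replicate 2. It overlaps AT5G20720, which had 1151 to 4819 counts where ARF7 had 50 to 157, so reads of the neighbour counted for ARF7 would weigh heavily in its value. AT5G20720 had log2 fold changes of -1.13 in libraries labelled hec1hec2, -0.31 in pifQ and -0.98 in Col-0 (FDR = 1.7e-05, 0.18 and 0.00014, edgeR). ARF19 had 0.10 in libraries labelled hec1hec2, -0.55 in pifQ (-0.42 without replicate 2) and 0.31 in Col-0. ARF19 overlaps AT1G19210, which lies on the same strand and had 0 counts in every library. Counting by strand would not tell these genes apart, and how reads from the shared stretch were counted is not given. At 18 to 37 counts a library, the 95% intervals of ARF19 were wide. They reached down to -1.13 in pifQ and up to 0.90 in Col-0, so a decrease of that size in pifQ or an increase of that size in Col-0 was not excluded.

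Because the libraries of 3 genotypes all bear on warmth, the mean of the 3 changes was also tested, a contrast added after the data were seen. AFB1 rose by a mean log2 fold change of 0.52 (standard error 0.11, FDR = 0.000358, edgeR), a 1.43-fold increase with a 95% interval of 1.22 to 1.67. ARF5 had -0.48 (standard error 0.11, FDR = 0.00097, edgeR), a fold of 0.715 with an interval of 0.608 to 0.841. Without pifQ 22°C replicate 2 the means were 0.48 for AFB1 and -0.42 for ARF5 (FDR = 0.00015 and 0.0011, edgeR). ARF8 had -0.38 (FDR = 0.030, edgeR), and -0.49 (FDR = 0.00027) without pifQ 22°C replicate 2. TIR1 had 0.20 (FDR = 0.048, edgeR), and its call was lost under most other settings.

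These 4 of 10 calls stood against 50.6% of all genes tested, and 4 of 10 against 54.1% without pifQ 22°C replicate 2. The other 6 genes had mean log2 fold changes from -0.16 (ARF6) to 0.16 (AFB5), and from -0.09 (ARF7) to 0.07 (AFB2) without that library. The receptors called were higher at 28°C and the ARFs called were lower. In libraries labelled hec1hec2 and pifQ, the receptors summed to 203 to 215 and 223 to 248 CPM at 28°C, against 184 to 208 and 207 to 222 CPM at 22°C (191 to 222 CPM in pifQ with replicate 2), and in Col-0 to 219 to 238 CPM at 28°C, against 196 to 234 CPM at 22°C. These sums were not tested.

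**Figure D2:**
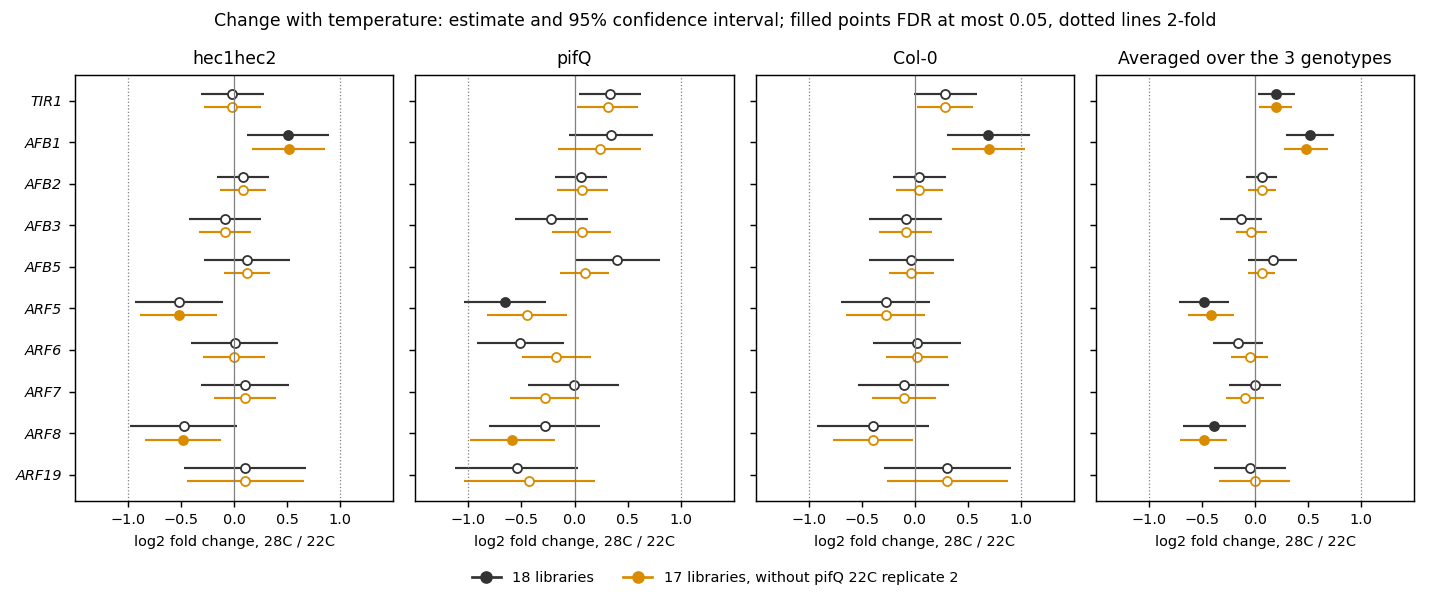
Log2 fold change of each gene at 28°C over 22°C (horizontal axis) in libraries labelled hec1hec2, pifQ, Col-0 and averaged over them, with 95% intervals, from all 18 libraries (dark) and from 17 (orange). Filled points had an FDR of at most 0.05 and dotted lines mark 2-fold. AFB1 lay right of 0 and ARF5 and ARF8 left of it in every panel, and no estimate reached a dotted line.

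The size of change was below that of all genes in libraries labelled hec1hec2 and Col-0, and near it in pifQ with all 18 libraries. Over the 10 genes, absolute log2 fold changes from all 18 libraries had a median of 0.10 in libraries labelled hec1hec2, 0.34 in pifQ and 0.19 in Col-0, against 0.35, 0.35 and 0.34 over all genes tested. The median in pifQ without replicate 2 is not given. The 95% interval stayed within 2-fold either way for 10 genes in libraries labelled hec1hec2, for 8 in pifQ (9 without replicate 2) and for 9 in Col-0. The exception in Col-0 was AFB1, whose interval reached 1.08 on the log2 scale, and those in pifQ were ARF5 and ARF19.

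Whether HEC or PIF mutations altered these genes was the second comparison, each mutant being set against Col-0 at 1 temperature. No member was called in libraries labelled hec1hec2 at 28°C or 22°C, or in pifQ at 28°C or 22°C, by edgeR, with or without pifQ 22°C replicate 2, and none by DESeq2. Over all genes tested, 1.44%, 1.7%, 1.47% and 0.0553% were called in the same order. At an unadjusted p under 0.05 there were 1, 0, 1 and 1 members. The 95% interval stayed within 2-fold for 10, 10, 10 and 9 of the 10 genes, and for all 10 in each without that library.

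TIR1 in libraries labelled hec1hec2 at 28°C came nearest to a call. It had 44.0, 33.2 and 39.0 CPM there, against 45.3, 53.7 and 55.0 CPM in Col-0 at 28°C. Its log2 fold change was -0.41 (standard error 0.14, FDR = 0.21, edgeR), and FDR = 0.075 without pifQ 22°C replicate 2. Of the 10 genes, 1 (TIR1) had ranges apart in that comparison, against 20.6% of all genes. AFB5 and ARF6 had ranges apart at 22°C, where AFB5 had 45.4, 50.9 and 46.5 CPM in libraries labelled hec1hec2, against 61.9, 61.1 and 53.9 CPM in Col-0 (log2 fold change -0.31, FDR = 0.67 and 0.11 with 18 and 17 libraries, edgeR); 20.2% of all genes had ranges apart there.

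In pifQ at 28°C, AFB1, AFB5 and ARF5 had ranges apart from Col-0, 3 of 10 against 19% of all genes. AFB1 had 22.9, 20.5 and 25.9 CPM in pifQ, against 34.6, 31.0 and 26.7 CPM in Col-0 (log2 fold change -0.41, FDR = 0.39 and 0.18 with 18 and 17 libraries, edgeR). AFB5 had 73.5, 63.6 and 64.5 CPM in pifQ, against 53.3, 58.8 and 60.5 CPM in Col-0 (0.22, FDR = 0.77 and 0.27, edgeR). At 22°C 1 of 10 genes, ARF5, had ranges apart, against 12.6% of all genes, with replicate 2 included. AFB3 had ranges apart as well without replicate 2, for which no share of all genes is given. ARF5 had 19.0, 26.7 and 16.8 CPM in pifQ, against 12.8, 12.7 and 15.3 CPM in Col-0, with a log2 fold change of 0.60 (FDR = 0.33, edgeR) that was 0.40 without replicate 2 (FDR = 0.64). The root markers summed to 45.2 to 72.1 CPM in pifQ and 106 to 175 CPM in libraries labelled hec1hec2, against 75.3 to 112 CPM in Col-0. None was called in pifQ against Col-0. In libraries labelled hec1hec2, RHS19 was higher at both temperatures and LRX1 at 28°C, and the others were not called. With 17 libraries LRX1 at 22°C and EXPA7 at 28°C joined them, and CASP1 was lower in pifQ at 28°C (FDR = 0.016, edgeR). The part of the root markers in the values of the 10 genes was not tested.

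**Figure D3:**
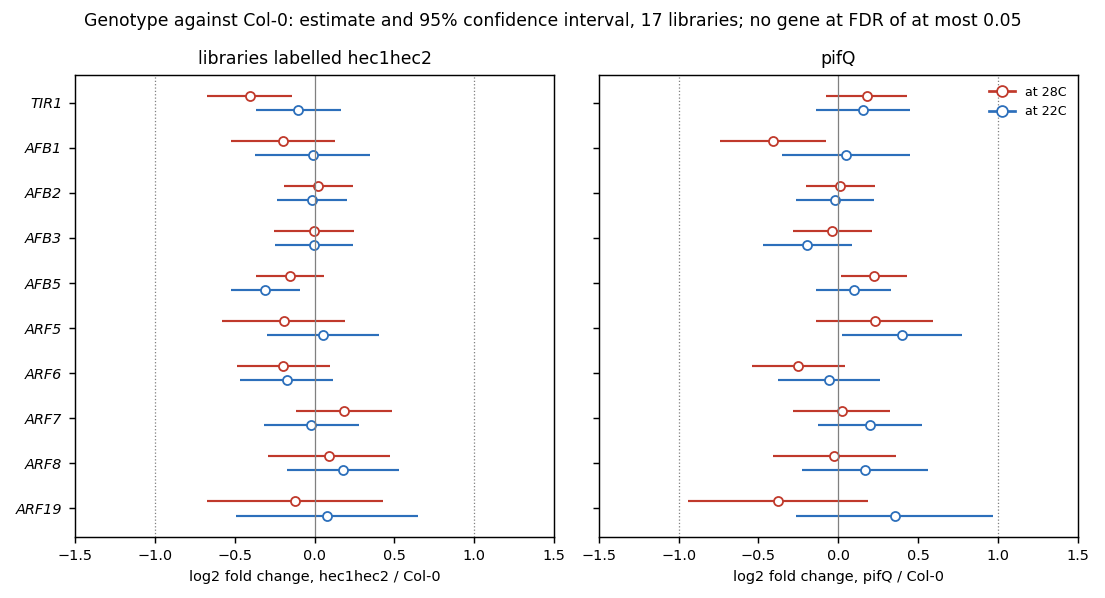
Log2 fold change of each gene over Col-0 (horizontal axis) in libraries labelled hec1hec2 (left) and pifQ (right), at 28°C in red and 22°C in blue, with 95% intervals, from 17 libraries. Dotted lines mark 2-fold. No gene was called, and all intervals lay between -0.94 and 0.97.

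The response to warmth was also compared between genotypes. In the interaction of temperature with hec1hec2 no member was called by edgeR or DESeq2 (lowest FDR = 1.0, 0 members at an unadjusted p under 0.05), against 0.0166% of all genes. In the interaction with pifQ none was called by either tool (lowest FDR = 0.64, 1 member at an unadjusted p under 0.05), against 0.0608% of all genes. That member was ARF19, at -0.85 with an interval from -1.68 to -0.02. Intervals of the interactions stayed within 2-fold for 9 and 7 of the 10 genes (10 and 9 without pifQ 22°C replicate 2), so they leave room for sizeable differences in a few genes.

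Most pairs of the genes showed little correlation across libraries. Over the 45 pairs and the 17 libraries the median correlation of log2 CPM was 0.05, as a description that includes the group differences. The highest was 0.81 between TIR1 and AFB5, which were both high in pifQ and low in libraries labelled hec1hec2, but it was 0.46 with all 18 libraries. ARF5 and ARF8 had 0.63 (0.013 with all 18) and AFB1 and ARF5 -0.55 (-0.63 with all 18). In pifQ 22°C replicate 2, levels relative to the mean of the other pifQ libraries at 22°C were 0.40 for AFB5, 0.40 for ARF8 and 0.46 for ARF7, all on chromosome 5, and 1.84 for ARF6, 1.69 for AFB3 and 1.49 for ARF5, all on chromosome 1.

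Of all tested genes, those with the pattern most like each member over the 17 libraries, by Pearson's r of log2 CPM, were POB1 for TIR1 (0.90), AT1G09050 for AFB1 (0.90), ASG1 for AFB5 (0.90), AT3G51990 for AFB2 (0.73) and SGP2 for AFB3 (0.79). For the ARFs they were CSLB03 for ARF5 (0.88), MUB1 for ARF6 (0.89), NAC017 for ARF7 (0.80), AT5G44578 for ARF8 (0.88) and MOT1 for ARF19 (0.78). Each is the highest over all tested genes and comes with no test.

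The precursors of the miRNAs were counted as genes, which does not measure the mature forms. MIR167A, which gives miR167a, had 16, 6 and 7 counts at 28°C, against 33, 20 and 23 at 22°C, in libraries labelled hec1hec2. In pifQ it had 15, 14 and 21 counts at 28°C, against 26, 7 (replicate 2) and 17 at 22°C. In Col-0 it had 11, 8 and 8 counts at 28°C, against 27, 21 and 19 at 22°C. MIR167A thus fell at 28°C in libraries labelled hec1hec2 (log2 fold change -1.25, FDR = 0.014, edgeR) and in Col-0 (-1.32, FDR = 0.013, edgeR), and had -0.08 in pifQ (FDR = 0.89) or -0.37 without replicate 2 (FDR = 0.49). MIR167B, which gives the same mature sequence, had 1 to 16 counts and log2 fold changes of 0.07 in libraries labelled hec1hec2, -0.04 in pifQ (-0.48 without replicate 2) and 0.92 in Col-0, none past the FDR. No values are given here for MIR167C and MIR167D, so these counts do not describe all miR167 precursors. The miR393 precursors had 0 counts (MIR393A) or 0 to 3 counts (MIR393B) in every library, and a count of 0 allows up to 3 counts, so no change of them was detectable.

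Genes that act beside the receptors and ARFs were counted by list, first the Aux/IAA genes, which code for the repressors. Of 22 Aux/IAA genes tested, 9 rose in libraries labelled hec1hec2, 2 in pifQ and 9 in Col-0, while 0, 2 and 0 fell. Over all genes 14.9%, 13.1% and 13.2% rose and 14.3%, 14.3% and 12.8% fell. Without pifQ 22°C replicate 2, 24 were tested, with 11, 1 and 14 higher and 0, 1 and 1 lower. Of all genes, 36.7%, 28.2% and 33.7% were then called in either direction. IAA29, for example, had a log2 fold change of 2.87 in libraries labelled hec1hec2 and 2.68 in Col-0, and IAA19 had 1.65 and 1.89. Several Aux/IAA genes are themselves induced by auxin.

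The median log2 fold change of the Aux/IAA genes was 0.39, 0.04 and 0.32 in libraries labelled hec1hec2, pifQ and Col-0, against 0.05, 0.00 and 0.04 over all genes. In pifQ at 28°C, 6 of 22 were lower than in Col-0 and none higher (10 of 24 without pifQ 22°C replicate 2), among them IAA19 at -2.05 and IAA29 at -3.39. Of all genes, 1.47% were called there in either direction with 18 libraries. The interaction with pifQ passed the FDR for IAA14 only (-1.06, FDR = 0.0498, edgeR), and for 4 genes (IAA2, IAA7, IAA14 and IAA29) with 17 libraries. It passed for 0.0608% of all genes with 18 libraries. Shares of all genes with 17 libraries are not given for the comparison with Col-0 or the interaction. In the same comparisons no receptor or activator ARF gene was called.

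**Figure D4:**
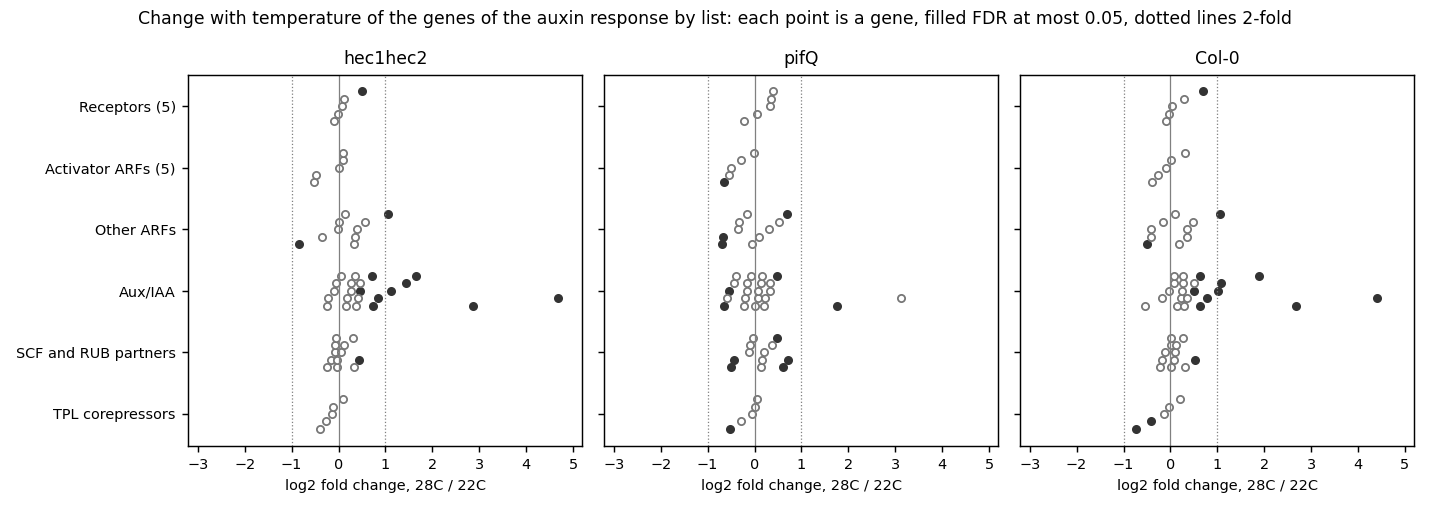
Log2 fold change at 28°C over 22°C (horizontal axis) of the tested genes of 6 lists in libraries labelled hec1hec2, pifQ and Col-0, from 18 libraries. Each point is a gene, filled where the FDR was at most 0.05, and dotted lines mark 2-fold. Receptors and activator ARFs lay within the dotted lines in every panel, whereas Aux/IAA genes reached 4.68 in libraries labelled hec1hec2 and 4.41 in Col-0.

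Of the other ARF genes, mostly of the repressor classes, 10 of 18 passed the filter. In libraries labelled hec1hec2 1 rose and 1 fell, in pifQ 1 rose and 2 fell, and in Col-0 1 rose and 1 fell. In the same order, 14.9%, 13.1% and 13.2% of all genes rose and 14.3%, 14.3% and 12.8% fell. Without pifQ 22°C replicate 2, 3 rose and 1 fell in libraries labelled hec1hec2 (ARF2 and ARF18 joining those that rose), 1 rose and 2 fell in pifQ, and 3 rose and 1 fell in Col-0 (ARF1 and ARF2 joining). Of all genes, 36.7%, 28.2% and 33.7% were then called in either direction. ARF11 rose in all 3 genotypes (log2 fold changes 1.05, 0.70 and 1.05), while ARF4 fell in libraries labelled hec1hec2 (-0.85) and pifQ (-0.68), ARF17 in pifQ (-0.69) and ARF16 in Col-0 (-0.51). Without replicate 2 the values in pifQ were 0.79 for ARF11, -1.01 for ARF4 and -0.66 for ARF17. AFB4, the receptor closest to AFB5, had 0.49, 0.24 and 0.26, none past the FDR, and 0.33 on average (FDR = 0.016, edgeR). Without pifQ 22°C replicate 2 AFB4 had 0.49 in libraries labelled hec1hec2 (FDR = 0.031, edgeR) and 0.39 in pifQ (FDR = 0.18).

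Of 12 partners in the SCF complex and the RUB pathway, which attaches the ubiquitin-like RUB to the cullin, 1 rose in libraries labelled hec1hec2 (ASK2), 3 rose (ASK2, ECR1 and SGT1A) and 2 fell (CAND1 and RUB1) in pifQ, and 1 rose in Col-0 (ECR1). Without pifQ 22°C replicate 2, 2, 4 and 3 rose in the same order and none fell. Of all genes, 14.9%, 13.1% and 13.2% rose and 14.3%, 14.3% and 12.8% fell with 18 libraries. With 17, 36.7%, 28.2% and 33.7% were called in either direction. ASK2, an adaptor subunit, had log2 fold changes of 0.43, 0.61 and 0.32, and ECR1, a subunit of the RUB-activating enzyme, had 0.33, 0.72 and 0.52. Without replicate 2 the values in pifQ were 0.38 for ASK2 and 0.47 for ECR1. Of 5 TPL corepressor genes, none fell in libraries labelled hec1hec2 (1, TPR2, without pifQ 22°C replicate 2, at FDR = 0.021), 1 fell in pifQ (TPL, lost without replicate 2 at FDR = 0.13) and 2 in Col-0 (TPR2 and TPR3), and none rose. The shares of all genes given for the partners apply here too.

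The 250 bases before each gene start were searched on both strands for the G-box CACGTG, the PBE-box CACATG, both bound by PIFs, and the auxin response elements TGTCTC and TGTCGG. None of the 10 genes had CACGTG, which 6.49% of 27444 promoters held. CACATG was found in AFB2 and AFB3 (11.1% of all promoters), TGTCTC in AFB5 (10.9%) and TGTCGG in ARF7 and ARF19 (4.16%). The genes called with temperature, AFB1, ARF5, ARF8 and TIR1, held none of these letters in that window. None of the motifs contains another, and nothing follows about binding.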

How the data were processed

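Raw counts per gene were deposited by the authors in 1 table of 18 libraries. The submitters' processing notes name FastQC, TopHat, Bowtie2, HTSeq, edgeR and the TAIR10 build; versions and the use of strand are not given in the sources used here. No molecular identifiers are described, and the upper limit of 3 counts given for miRNA precursors covers counting error only. The 95% intervals of fold changes come from the edgeR model and also include variation between replicates. Totals ranged from 3631558 to 6285632 counts.

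Fits were first tested on simulated data. Genes were filtered by expected expression (filterByExpr) and scaled by TMM, and 1 model with 6 groups was fitted with edgeR 4.0.16 (quasi-likelihood test, R 4.3.3). Contrasts set 28°C against 22°C within a genotype, each mutant against Col-0 at each temperature, and the interactions. The mean over genotypes was added after the data were seen. P-values were adjusted by Benjamini-Hochberg over all 18078 genes tested (18385 with 17 libraries), and an FDR of at most 0.05 was a call. The study's cutoff of 2-fold is given beside it. The biological coefficient of variation was 0.128. Log2 CPM for correlations used a prior count of 2. DESeq2 1.42.0, RLE scaling, other filters, fits on the compared libraries, a replicate term and leaving out each library were alternatives.

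All 10 members are named, as are genes of the lists past the FDR and, for each member, the tested gene with the highest correlation over 17 libraries; other genes named, such as overlapping neighbours and MIR167A in pifQ, were chosen after their values were seen. Members and lists were chosen with earlier results of these data known. Sequences were read from the TAIR10.1 genome and its RefSeq annotation. No other file was used. One list of genes downstream of ARFs is not reported here.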

Additional observations from a re-analysis of the deposited data

How the results depend on the processing

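Each result was recomputed under 24 alternatives. Of 2400 values of single genes, 2346 kept direction and side of the FDR, 18 gained and 36 lost the call, and no called value turned round; 120 uncalled values changed sign. Within libraries labelled hec1hec2, the count of members called (1) was 0 with DESeq2, 2 without a filter, 3 with the compared libraries only, and 0 to 3 when a library was left out. In pifQ (1) it was 2 without a filter, 0 with the compared libraries only, and 0 to 3 when a library was left out; in Col-0 (1) it was 0 to 1. For the mean over genotypes (4) it was 2 to 4 when a library was left out and 3 with RLE scaling, with DESeq2, without a filter or at 1 CPM. With the 2-fold cutoff all 4 counts were 0. AFB1 in libraries labelled hec1hec2 lost its call with RLE scaling (FDR = 0.060, edgeR), with DESeq2 (FDR = 0.069) and without hec1hec2 28°C replicate 2 or 3, hec1hec2 22°C replicate 1, 2 or 3, pifQ 28°C replicate 1 or Col-0 28°C replicate 2 (FDR = 0.052 to 0.19, edgeR). ARF5 in those libraries gained a call in 8 alternatives. ARF5 in pifQ lost it without pifQ 22°C replicate 2 (FDR = 0.068, edgeR), without pifQ 28°C replicate 1 (FDR = 0.0505) and with the compared libraries only (FDR = 0.081). ARF8, on average, lost it in 6 fits without 1 library (FDR up to 0.10, edgeR) and TIR1 in 16 alternatives (up to 0.17).

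The replicate number was not taken as a pairing, since the labels tie it to no shared batch and 22 of 45 same-numbered pairs had correlated deviations over 0.1 (-0.054 to 0.32). Of these pairs 33 correlated best with their own number, more than an even spread over the replicate numbers would give. Same-numbered libraries may therefore share something that the main model leaves out. With the replicate block the count in pifQ was 2, ARF6 joining ARF5 (FDR = 0.038, edgeR), and other counts of members stayed within 1.5 times.

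Over all genes, calls in pifQ with warmth were 4952 and 2353 with the compared libraries only. Libraries labelled hec1hec2 against Col-0 at 28°C gave 260 calls, 504 without a filter and 786 with the compared libraries only, and at 22°C 308, 466 and 732. For pifQ they were 265, 405 and 638 at 28°C, and 10, 98 and 5 at 22°C (26 with DESeq2). The interaction with hec1hec2 gave 3, 36 and 52 (16 with DESeq2, 6 with the block), and that with pifQ 11, 54 and 1 (37 with DESeq2, 5 with RLE, 7 at 1 CPM, 6 with the block). Causes of these differences were not tested. Precision was limited by depth most for ARF19, at 18 to 37 counts.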
